A study of Mus musculus with 10 samples.

Results

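Colon organoids without Trp53 that were kept without added Wnt were compared with wild-type colon organoids. Of the 10 two-colour arrays of the series, 2 hybridised these groups directly against each other, 1 in each dye orientation, and all 6 organoid arrays were used, because the other 4 link the same samples through a Trp53-deleted group in full medium. Of 25160 genes with a named probe, 9894 could be tested. By its title, the series asks what role p53 has in closing the repair phase after colitis-type damage. The present comparison holds the sum of gene loss, medium and adaptation.

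Isolated colon crypts form organoids, hollow epithelial structures that keep growing when embedded in basement membrane proteins. The WT group was in full medium, which held 0.328 nM surrogate Wnt (sWnt), 3 µM CHIR (an inhibitor of GSK3 that stabilises β-catenin), 25% R-spondin 1 conditioned medium, 100 ng/ml noggin, 50 ng/ml EGF and 0.5 µM of the TGFβ receptor inhibitor A83-01. The KO group came from VillinCreERT2 x Trp53 fl/fl mice, whose recombinase is driven by the promoter of a gene of intestinal epithelium. These cultures received 800 nM 4OH-tamoxifen for 2 days and were then selected with Nutlin-3A, a drug that blocks the p53 ligase Mdm2 and so halts cells with working p53, and were kept in full medium. The KOWI group, labelled P53KO-Wnt-independent, carried the same deletion and was in medium without sWnt and CHIR, with the other factors still present. Each group had 2 replicates. The labels do not say that replicates came from separate mice, so the p-values speak of the scatter among these samples alone, part or all of which may be technical. WT and KOWI differ in genotype, medium, selection and adaptation, which cannot be told apart here.

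The colon crypt holds stem cells at its base, and these divide under Wnt signals that keep β-catenin from being degraded. Their daughters become absorptive colonocytes or secretory goblet and enteroendocrine cells as they move up. p53 is a transcription factor that halts or removes damaged cells, and YAP and its relative TAZ are coactivators, held back by the Hippo kinases, that pair with TEAD factors and are known for their activity in injured and fetal gut epithelium.

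Per channel, 44.6% to 59.1% of spots passed the scanner software's test of being well above background. The scanner software marked 13.7% to 16.3% of spots as outliers on the 4 arrays that held KOWI RNA, against 0.808% and 2.18% on the arrays with WT and KO, and such spots were set to missing. Of 14665 genes above background in at least 1 group, 4771 could then not be linked across the 6 samples and were not tested. Replicate 1 was always labelled with Cy3 and replicate 2 with Cy5, so dye and replicate share 1 term of the model. All values below are log2 ratios. The value of a sample is its fitted log2 ratio to the mean of the 2 WT samples, and a gene is called when its limma adjusted p was under 0.05. In bulk samples, fewer cells of a type and less RNA per cell cannot be told apart.

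Some markers of other tissues were measurable in all groups. All 22 general epithelium genes, Epcam and Cdh1 among them, were well above background in every channel of every group. Of the 16 tested (median -0.07), 0 were called, against 5.27% of all genes. Well above background in all channels were 2 of 16 fibroblast markers in WT and 3 in KOWI, 5 and 6 of 10 smooth muscle markers, 3 and 4 of 10 endothelial markers, 9 and 10 of 18 immune markers, 3 and 5 of 10 neuron and glia markers, and 11 and 11 of 17 small intestine markers. In no channel were 6, 2, 4, 5, 3 and 1 of these, among them the endothelial cadherin Cdh5 and the macrophage gene Adgre1. Summed normalised intensities of 4 lists were higher in both KOWI samples than in both WT samples. The immune list had 62500 and 92500 in WT against 155000 and 125000 in KOWI, the endothelial list 8980 and 9350 against 20100 and 17000, and the small intestine list 29100 and 32000 against 95500 and 103000. Neuron and glia sums were 3570 and 4270 against 5060 and 6950, whereas smooth muscle (23700 and 23700 against 22800 and 31400) and fibroblast sums (3180 and 5890 against 4260 and 5420) overlapped. General epithelium sums were lower in both KOWI samples, at 548000 and 584000 in WT against 474000 and 500000 in KOWI. Stomach marker sums were also lower, at 5330 and 5040 in WT against 3880 and 5010 in KOWI. All these sums are set across arrays, while the ratios below are within arrays. Spots marked as outliers are kept in the sums, and bright genes weigh most. The endothelial gene Egfl7 had log2 intensities of 12.74 and 12.49 in WT and 13.99 and 13.61 in KOWI. The immune gene Cd68 had 12.36 and 12.13 against 12.90 and 14.19. With outlier spots kept, the ratios of these genes were 0.39 and 0.01. Another Cd68 probe, the brightest that could be fitted, gave 0.87 (SE 0.16, limma adjusted p = 0.0459). The higher sums are not shown to be list-wide. Among list members tested in the main fit, the 3 immune genes lay between -0.15 and 0.18. The 2 endothelial genes were at 0.61 and 0.63, and the 10 small intestine genes had a median of -0.19. Uchl1, a neuronal ubiquitin hydrolase, was called higher (1.06), though no WT channel was well above background. Its KO over WT value was 0.90. The part of such cells in the results below was not tested.

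The targeted gene was checked first. Trp53 had values of 0.21 and -0.21 in the WT samples, -0.86 and -0.79 in the KO samples, and -0.74 and -0.84 in the KOWI samples. All 4 samples of the deleted cultures lay below both WT samples. Its probe, on mm9 chromosome 11 from 69403134 to 69403193, was well above background in 4 of 4 WT channels and in 0 of 4 KO and 0 of 4 KOWI channels. For KOWI over WT, Trp53 was at -0.79 (SE 0.19, limma adjusted p = 0.0782), with only dim signal in KOWI, and whether the probe lies in the deleted part was not checked.

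KOWI organoids differed from WT in 521 of 9894 genes (5.27%), 323 higher (3.26%) and 198 lower (2.00%). The ratio of every called gene had the same sign in both replicates, which the call itself favours. Of the called genes, 295 were more than 2-fold higher and 183 more than 2-fold lower, and 55 and 37 passed 4-fold. In the same fit, 0 genes were called for KO over WT by limma (539 at an unadjusted p under 0.05) and 42 (0.424%) for KOWI over KO. These contrasts share samples with KOWI over WT, so their values are only set side by side below. Across genes, which are not independent replicates, the 2 replicate ratios correlated at r = 0.601 and the 2 direct arrays at r = 0.495, and 462 of the 468 called genes measured on both direct arrays had the same sign on both. The calls rest on few samples. Leaving out KOWI replicate 2 gave 0 calls (1351 genes at an unadjusted limma p under 0.05) and leaving out KO replicate 2 gave 15. Without WT replicate 1, WT replicate 2 or KOWI replicate 1 the counts were 108, 48 and 272. Keeping the spots marked as outliers gave 6 calls among 14665 genes, but 535 when only the 9894 genes were tested. The authors' deposited ratios gave 4 calls, 2 in each direction, also among 14665 genes. In every alternative, the called genes that could be tested kept their sign. The sign counts come from the data that made the calls, so they are no separate check.

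**Figure D1:**
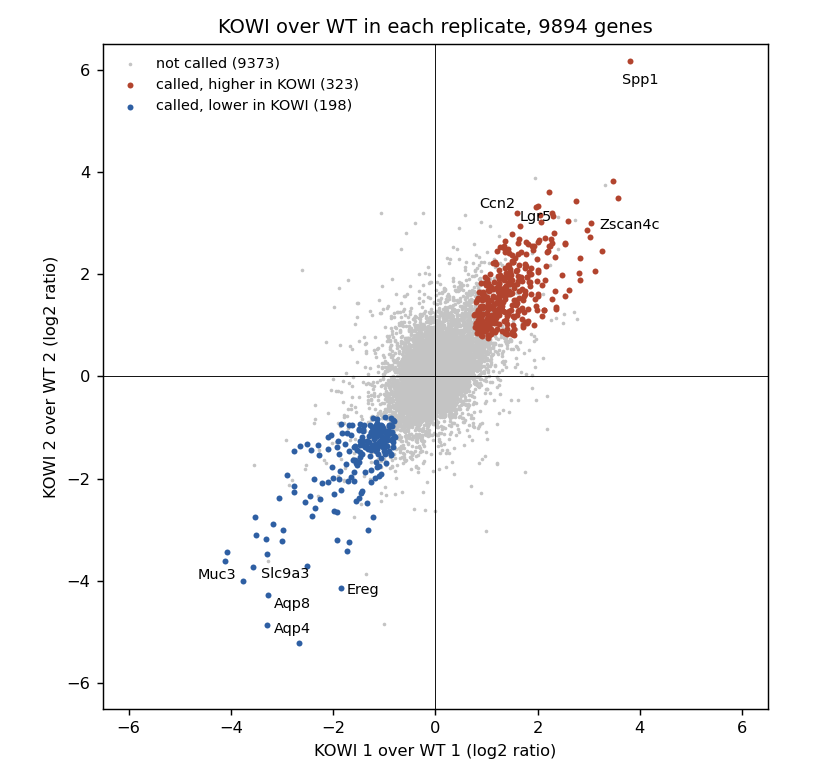
Log2 ratio of KOWI 1 over WT 1 (x axis) against KOWI 2 over WT 2 (y axis) for the 9894 genes tested, from the fit to all 6 organoid arrays. Red points are the 323 genes called higher and blue points the 198 called lower in KOWI; all of them lie in the lower left or upper right part of the plot, with Spp1 farthest out at 3.80 and 6.18.

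Genes of the mature absorptive cell were much lower in KOWI. Of 32 colonocyte markers, 32 were above background, 25 could be tested, and 14 were called lower and 0 higher, against 2.00% and 3.26% of all genes. The median of the 25 was -1.46, against 0.01 for all genes tested, and 24 of 25 were negative. Muc3, a mucin anchored in the brush border, had values of 0.06 and -0.06 in WT, -0.57 and -0.84 in KO, and -3.70 and -4.06 in KOWI. The groups do not overlap, and most of the distance lies between KO and KOWI. The fold for Muc3 was 14.8 (log2 -3.88, SE 0.17, limma adjusted p = 0.00634), and another probe of the gene gave -1.92.

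Aqp8, a water channel of surface colonocytes, had values of -0.08 and 0.08 in WT and -3.36 and -4.20 in KOWI (13.7-fold lower, SE 0.30 on the log2 scale, limma adjusted p = 0.0117). Its KO values were -0.62 and -0.37. The sodium-proton exchanger Slc9a3 was 12.5-fold lower, with -3.51 and -3.79 in KOWI against 0.05 and -0.05 in WT, and its 2 direct arrays read -3.34 and -2.95. Both transporters were thus well apart from either full-medium group. The other called members were Tmigd1 (-3.11), the amino acid transporter Slc6a19 (-2.99), Lypd8 (-2.51), the metalloprotease Mep1a (-2.45), Emp1 (-1.55 and -2.44 in the replicates), the bile acid transporter subunit Slc51b (-1.63), the carbonic anhydrase Car4 (-1.58), the keratin Krt20 (-1.46), the guanylin gene Guca2a (-1.36), the actin bundler Vil1 (-1.23) and the protocadherin Cdhr2 (-1.03). Krt20 was uneven, with -2.08 in KOWI 1 and -0.84 in KOWI 2. Not every colonocyte gene was lower: Car2 was at 0.32, Ceacam1 at -0.02, and the intestinal transcription factor Cdx2 at -0.38, none of them called. Without KOWI replicate 2, 0 members of the list were called, with a median of -1.57; with outlier spots kept, 2 were called when all 14665 genes were tested and 12 when only the same 9894 were.

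The largest falls overall included further absorptive and metabolic genes. Hao2, a peroxisomal oxidase, was at -3.94, the peptidase Enpep at -3.87 and the trypsin inhibitor Spink1 at -3.75. Sval1 was at -3.38, with -3.30 and -3.47 in the replicates, and the esterase Bche at -3.14. Osr2 (-3.11, but -1.06 by a second probe), Akr1c14 (-3.03) and Cadps2 (-2.71) followed. The KO over WT values of these genes ranged widely: Sval1 was at 0.53 and Akr1c14 at -0.28, whereas Osr2 was at -2.05, so the KO sample values of Osr2 already lay below WT. Among called genes dim in KOWI, where no channel was well above background, were Elavl2 (-1.38), the fructose transporter Slc2a5 (-1.12) and Pate14 (-1.05). A bound from channel means exceeded the fitted ratio for these 3 and is not given.

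Several enzymes that modify drugs and other foreign compounds fell. Of 28 drug metabolism genes tested (36 of 42 listed were above background), 4 were called lower and 0 higher, against 2.00% and 3.26% of all genes, with a median of -0.88 and 23 negative. The sulfotransferase Sult1b1 had values of 0.01 and -0.01 in WT, -0.62 and -0.88 in KO, and -3.49 and -3.11 in KOWI (9.87-fold lower, SE 0.21 on the log2 scale, limma adjusted p = 0.00857). Sult1b1 was lower on both direct arrays, at -3.07 and -3.43. The carboxylesterases Ces2e (-2.57) and Ces2c (-1.88) and the glucuronosyltransferase Ugt2b5 (-2.29) also fell, and these were already at -1.80, -1.34 and -1.95 in KO over WT. Ces and Ugt genes have close copies, so their probes may share signal.

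Respiratory and fat-burning genes lay slightly below WT as groups with few calls. Over all genes, 3.26% were called higher and 2.00% lower. Of 24 oxidative phosphorylation genes, 23 were negative with a median of -0.29, and 1, Sdha, was called (-1.42). A second Sdha probe gave only -0.36. Of 17 fatty acid oxidation and ketogenesis genes, 16 were negative with a median of -0.38. The lipid-sensing receptor Ppara was the 1 called (-1.30, and -1.24 by a second probe). Glycolysis genes had a median of 0.04, with Pgk1 (1.13) and the regulator Pfkfb3 (1.42) called higher.

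Secretory lineage markers gave few calls. Of 17 goblet cell genes tested, 2 were called lower and 0 higher, against 2.00% and 3.26% of all genes. The 2 were the transcription factor Klf4 (-1.38) and Rep15 (-1.08), and the list had a median of -0.59 with 15 negative. The mucin gene Muc2 was at -0.24, and Atoh1, which directs cells to the secretory fate, at -0.61 (limma adjusted p = 0.16). Atoh1 was at 0.98 in KO over WT. Of 11 enteroendocrine genes, 10 were negative (median -0.47) and 0 were called in either direction. The goblet and enteroendocrine medians for KO over WT had the other sign, at 0.48 and 0.45.

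**Figure D2:**
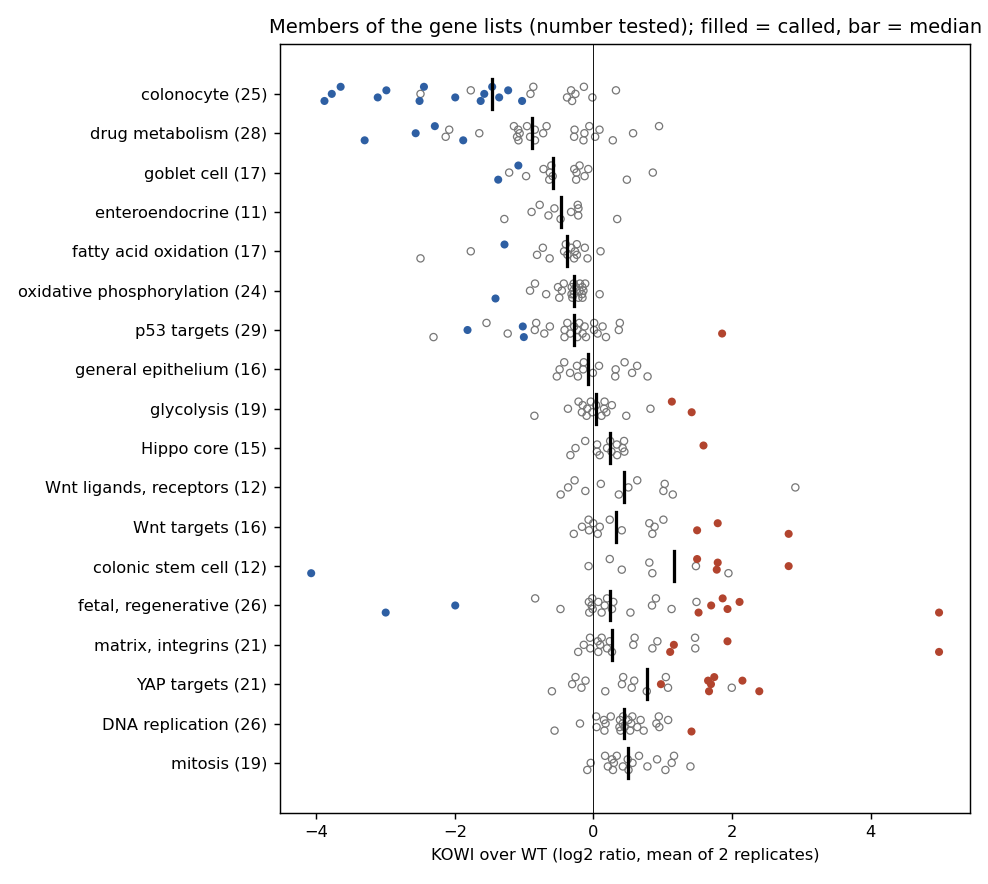
Log2 ratio of KOWI over WT (x axis) for the tested members of 18 gene lists, with the number tested in brackets. Open circles are genes not called, filled circles genes called lower (blue) or higher (red), and black bars list medians; colonocyte genes reach from -3.88 to 0.32, and YAP targets from -0.60 to 2.39.

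In medium without sWnt and CHIR, markers of the crypt stem cell were not lower as a group. Of 12 stem cell markers tested (17 of 18 above background), 4 were called higher and 1 lower, against 3.26% and 2.00% of all genes, with a median of 1.16, against 0.01 for all genes. Lgr5, the R-spondin receptor that marks the stem cell, had values of 0.42 and -0.42 in WT, 1.92 and 1.08 in KO, and 3.01 and 2.63 in KOWI. The 3 groups do not overlap, and KO lies between the others. The fold for Lgr5 over WT was 7.05 (log2 2.82, SE 0.19, limma adjusted p = 0.00968), with 1 array missing. Sox9, a transcription factor of crypt base cells, had 2.03 and 1.55 in KOWI against 0.41 and -0.41 in WT (1.79, SE 0.18, limma adjusted p = 0.0186), and another Sox9 probe gave 0.50. The neuritin gene Nrn1 was at 1.78 and Nkd1, a feedback inhibitor of Wnt signalling, at 1.50, both called. WT signal was dim: of 4 WT channels, 3 were well above background for Sox9 and 2 each for Nrn1 and Nkd1. Nrn1 and Nkd1 entered the test through KOWI alone, where they are high, so the filter favoured these calls. Of the 18 listed markers, 13 were well above background in all WT channels and 17 in all KOWI channels. Aqp4, a water channel that is on the same list, went the other way. Its values were 0.09 and -0.09 in WT, -0.69 and 0.86 in KO, and -3.20 and -4.95 in KOWI (log2 -4.07, SE 0.73, limma adjusted p = 0.0434). A second Aqp4 probe gave -1.14. Smoc2 was as high in KO as in KOWI (2.16 and 1.95 over WT) and was not called. The stem cell median was 0.05 without KOWI replicate 2, and 0 members were then called.

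Direct Wnt target genes were mixed. Of 16 tested, 3 were called higher and 0 lower, against 3.26% and 2.00% of all genes, with a median of 0.32. The 3 were Lgr5, Sox9 and Nkd1, which the stem cell list also holds, and Nkd1 entered the test through KOWI alone. Axin2, the feedback gene most used as a readout of β-catenin, had values of 0.26 and -0.26 in WT, 0.58 and 0.03 in KO, and 0.83 and 0.87 in KOWI. Both KOWI samples were above both WT samples, but Axin2 was not called (0.85, SE 0.21, limma adjusted p = 0.0881). The Wnt receptor ligase Rnf43 was at 0.09, but a second probe gave 0.83. Sp5 was at -0.00. Ascl2, a stem cell transcription factor, was at 0.81, with 0.01 in replicate 1 and 1.60 in replicate 2. Without KOWI replicate 2, Ascl2 was at -0.36, Rnf43 at -0.15, and the list median at -0.05, with 0 called. Notum was left untested by outlier spots; with those kept it was at -0.29. Of 17 genes of the β-catenin machinery, 0 were called in either direction and the median was 0.07.

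Wnt ligands and receptors gave 0 calls in either direction among 12 tested, against 3.26% higher and 2.00% lower of all genes. Of 50 listed, 23 were above background. Wnt7b, an epithelial Wnt ligand, had the largest ratio, with values of 0.30 and -0.30 in WT, 2.16 and -0.12 in KO, and 2.25 and 3.58 in KOWI. KO 1 and KOWI 1 nearly coincided for Wnt7b, which was not called (2.91, SE 0.79, limma adjusted p = 0.103), and a second probe gave 0.57. The receptor Fzd7 was at 1.01 and the ligand Wnt4 at 1.14 (limma adjusted p = 0.0706 and 0.0749). Ror2, a receptor for non-canonical Wnt ligands, was at -0.37 in KOWI over WT and at 1.75 in KO over WT. It entered the test through KO alone, with 2 of 4 channels well above background in WT and 2 of 4 in KOWI. Its direct arrays read -1.39 and 0.66. Wnt3 was not well above background in any channel.

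Targets of YAP and TAZ were higher in KOWI. Of 24 listed genes, 24 were above background and 21 tested, and 7 were called higher and 0 lower, against 3.26% and 2.00% of all genes, with a median of 0.77. Ccn2, a secreted matricellular protein and textbook YAP target, had values of 0.53 and -0.53 in WT, 0.09 and -0.61 in KO, and 2.13 and 2.66 in KOWI (5.25-fold, SE 0.39 on the log2 scale, limma adjusted p = 0.0353). KO overlapped WT, and KOWI stood apart from both. Its relative Ccn1 had 1.70 and 1.63 in KOWI against 0.16 and -0.16 in WT (3.18-fold, limma adjusted p = 0.0186). The tyrosine phosphatase Ptpn14, itself a YAP inhibitor, was at 1.74 (a second probe gave 0.67), Ccdc80 at 2.15, Tgfb2 at 1.65 and Myof at 0.97. Foxf2, at 1.70, was not well above background in any WT channel and was at least 2.99-fold higher in KOWI. Tgfb2 was well above background in 2 of 4 WT channels. Foxf2 and Tgfb2 entered the test through KOWI alone, where they are high, so the filter favoured these calls and the split of 7 to 0. Of the 24 listed genes, 19 were well above background in all WT channels and 24 in all KOWI channels. KO over WT values of these 7 genes lay between -0.26 for Ccn2 and 0.38 for Ccn1. Ankrd1 (1.08), Amotl2 (0.41) and Ajuba (0.43) were not called, and Nuak2 was at -0.60. Among 15 tested genes of the Hippo pathway itself, 1 was called, Wwtr1, which encodes TAZ, with values of 0.29 and -0.29 in WT, 0.41 and 0.16 in KO, and 1.68 and 1.48 in KOWI (1.58, SE 0.18, limma adjusted p = 0.0223). The gene for YAP itself, Yap1, was left untested by outlier spots; with those kept it was at 0.47. Without KOWI replicate 2 the YAP target median was 0.38 with 0 called, and without KOWI replicate 1 it was 1.09 with 6 called.

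The TEAD core letters GGAATG, on either strand, were sought in RefSeq promoter windows of assembly GRCm38.p6 (250 bases before the transcript start and 50 after it), since 7 YAP targets were called in 1 direction. Of the tested YAP targets, 14 had a window, and 7 of these genes held the letters. Of their 16 windows, 43.8% held them, against 14.7% of 32851 windows of all genes. Tested members enter whether called or not, so this share is not a result of the arrays. Among called members, 2 of 5 windows held the letters. The upstream parts of Ccn1 (chr3:145649986-145650235, minus strand) and Ptpn14 (chr1:189728018-189728267, plus strand) are shown because they are the called members with a match, which is in capitals and here reads as the reverse complement.
Ccn1: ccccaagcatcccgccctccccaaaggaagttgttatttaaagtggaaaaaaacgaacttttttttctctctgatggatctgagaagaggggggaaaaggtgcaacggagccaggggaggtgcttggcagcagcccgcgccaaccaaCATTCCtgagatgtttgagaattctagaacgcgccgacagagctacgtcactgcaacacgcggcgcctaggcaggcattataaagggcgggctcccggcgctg
Ptpn14: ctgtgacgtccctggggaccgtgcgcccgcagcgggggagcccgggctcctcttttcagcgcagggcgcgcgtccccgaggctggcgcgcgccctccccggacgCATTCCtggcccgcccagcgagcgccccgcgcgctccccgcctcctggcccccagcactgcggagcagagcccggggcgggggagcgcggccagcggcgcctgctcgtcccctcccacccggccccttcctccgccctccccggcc
The match ends 97 bases before the start of Ccn1 and 140 bases before that of Ptpn14. No match was found in the windows of Tgfb2, Foxf2 and Myof, and Ccn2 and Ccdc80 had no window. The TCF letters CTTTGAT were in 12.5% of 16 windows of tested Wnt targets and in 3.73% of all windows. The 1 window of a called Wnt target, that of Nkd1, did not hold them. A match is only a run of letters and was not tested as a binding site.

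**Figure D3:**
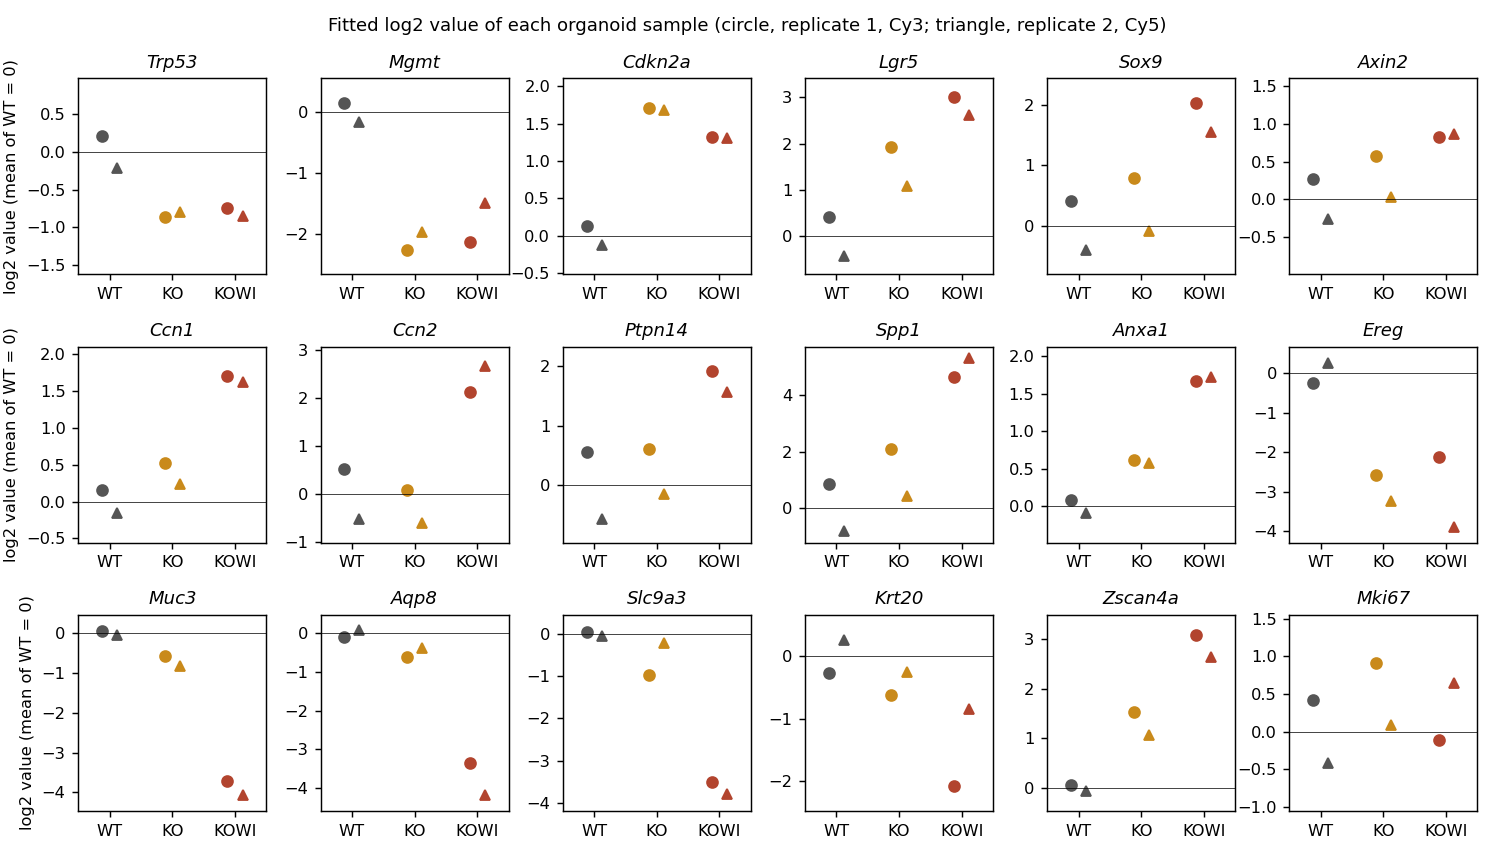
Fitted log2 value of each organoid sample (y axis, mean of the WT samples set to 0) for 18 genes in WT, KO and KOWI (x axis); circles are replicate 1 and triangles replicate 2. Ccn1, Ccn2, Muc3, Aqp8 and Slc9a3 show KOWI apart from both full-medium groups, whereas Mgmt, Ereg and Trp53 show KO and KOWI together.

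Among genes of fetal and regenerating gut epithelium, a minority were called. Of 26 tested, 6 were called higher and 2 lower, against 3.26% and 2.00% of all genes, with a median of 0.23. Spp1, which encodes the secreted protein osteopontin, had the largest ratio of all called genes, with values of 0.84 and -0.84 in WT, 2.09 and 0.43 in KO, and 4.64 and 5.33 in KOWI. The KOWI samples were far above the others, while KO overlapped WT. The fold for Spp1 was 31.7 (log2 4.99, SE 0.61, limma adjusted p = 0.0228), and the direct arrays read 4.19 and 5.18. The prostaglandin synthase Ptgs2 (2.11), Tm4sf1 (1.93), Phlda1 (1.86), the annexin Anxa1 (1.70) and Wfdc2 (1.52) were the other 5. Anxa1 had KO values of 0.62 and 0.58 between those of WT (0.08 and -0.08) and KOWI (1.67 and 1.73). Clu, a marker of revival stem cells, was at 1.49 (limma adjusted p = 0.0601) and Ly6a, which encodes Sca-1, at 0.84 (0.0994), and neither was called. Emp1 (-1.55 and -2.44 in the replicates) and the EGF family ligand Ereg fell. Ereg had values of -0.26 and 0.26 in WT, -2.57 and -3.22 in KO, and -2.11 and -3.88 in KOWI (-3.00, SE 0.52, limma adjusted p = 0.0402), so KO and KOWI overlapped. Areg was at -0.03 and Krt7 at -0.01, and S100a6 was at 0.29, none of them called.

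Few targets of p53 were called. Of 29 tested, 3 were called lower and 1 higher, against 2.00% and 3.26% of all genes, with a median of -0.28, and 21 were negative. Mgmt, a DNA repair enzyme, had values of 0.16 and -0.16 in WT, -2.27 and -1.97 in KO, and -2.14 and -1.49 in KOWI (3.53-fold lower, limma adjusted p = 0.0287). KO and KOWI overlapped and lay well below WT. Zmat3 was at -1.02 and Zfp365 at -1.01, against -1.48 and -1.96 in KO over WT. The cyclin gene Ccng1 (-2.31) and Ephx1 (-1.54) had larger ratios but were not called, and Cdkn1a, which encodes the cell cycle inhibitor p21, was at -0.33. Mdm2, the p53 ligase and target, could not be tested in this fit; another of its probes gave -0.18. The 1 member that rose was Pmaip1, which encodes the death protein Noxa: its values were -0.33 and 0.33 in WT, 0.33 and 0.48 in KO, and 2.02 and 1.69 in KOWI (3.62-fold, limma adjusted p = 0.0281). Cdkn2a, the locus of p16INK4A and ARF, was called higher, with 1.32 and 1.31 in KOWI, 1.71 and 1.69 in KO, and 0.12 and -0.12 in WT (2.49-fold, limma adjusted p = 0.0244). Its KOWI values were below those of KO, and a second probe gave 1.34.

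**Figure D4:**
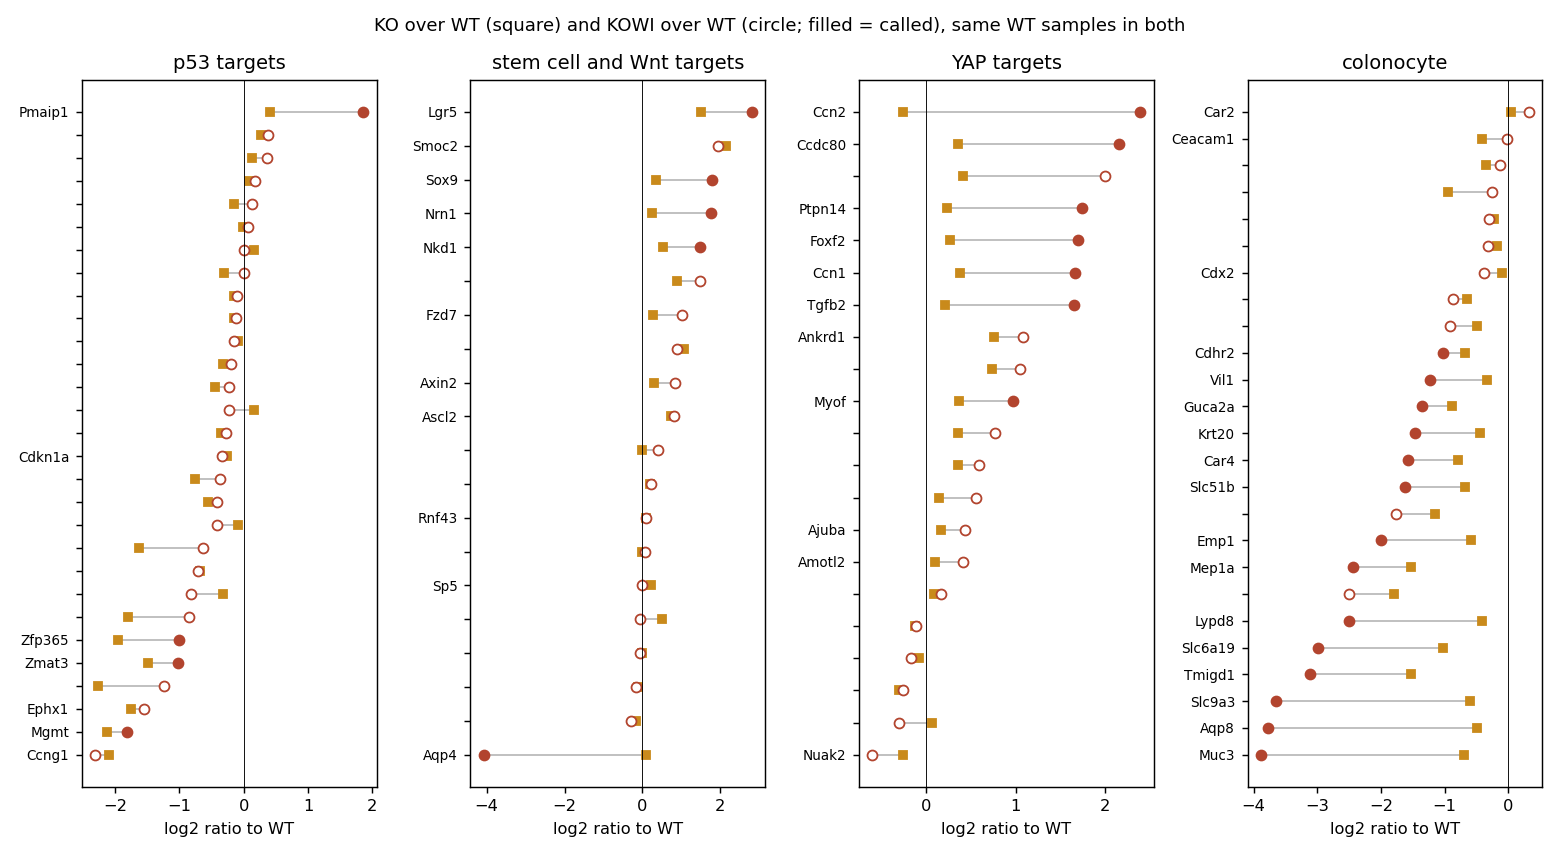
Log2 ratio to WT (x axis) of KO (squares) and KOWI (circles, filled where called) for tested p53 targets, stem cell and Wnt target genes, YAP targets and colonocyte genes (rows, labelled where the text names the gene). The same WT samples enter both ratios; for Mgmt the 2 symbols lie near each other (-2.12 and -1.82), and for Ccn2 and Muc3 far apart (-0.26 and 2.39, -0.70 and -3.88).

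Signalling and matrix genes gave scattered calls, set here against 3.26% of all genes called higher and 2.00% called lower. Of 17 genes of EGF and ERK signalling, 3 were called higher, the phosphatase Dusp1 (2.42), Phlda1 (1.86) and the ligand Btc (1.22), and 1 lower, Ereg. Dusp1 had 2.39 and 2.45 in KOWI against -0.42 and 0.42 in WT, and -0.04 and 0.60 in KO. Of 21 TGFβ and BMP genes, Tgfb2 (1.65), Bmp7 (1.21) and Skil (0.91) were called higher and Bmp3 (-1.31) lower. Of 14 Notch genes, the receptor Notch2 (1.50) and the coactivator Maml2 (1.57) were called higher, and the target Hes1 was at 0.05. A second Maml2 probe gave 0.76. Of 21 matrix and integrin genes, 4 were called higher: Spp1, the laminin chain Lamb1 (1.93), the integrin Itga2 (1.11) and the protease Plau (1.16). Plau was at least 1.89-fold higher, since no WT channel was well above background, and Lamb1 was well above background in 2 of 4 WT channels. Lamb1 entered the test through KOWI alone, and a second probe gave 0.73. Cald1, an actin-binding protein, was at 2.85, but its other 2 probes had a median of 0.35.

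Of 6 tested Cxcl chemokines, a group picked after its values were seen, 3 were called higher, against 3.26% of all genes. The chemokine Cxcl3, among the 15 highest ratios, had values of 0.44 and -0.44 in WT, 1.95 and 1.04 in KO, and 2.42 and 2.88 in KOWI (6.26-fold, limma adjusted p = 0.028). Cxcl10 (1.84) and Cxcl5 (1.81) were also called, and were at 1.28 and 1.86 in KO over WT. Cxcl5 was uneven between samples: WT 1, at 1.02, lay above KOWI 2, at 0.93, and its direct arrays read -0.12 and 3.67. Of 25 interferon-stimulated genes, Cxcl10 was the 1 called (median 0.06), and of 20 host defence genes, Cxcl5 was the 1 called (median -0.06). The prostaglandin synthase Ptgs1, on the tuft cell list, was at 2.74, although Avil (0.57) and Alox5ap (0.48) of that list were not called. H2-DMb1, an accessory protein of antigen presentation, was at 1.15, and Cd74 at 0.55 was not called.

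Proliferation genes depended on the replicate. Of 26 DNA replication genes, 1 was called higher, Pola1 (1.40), against 3.26% of all genes. Their median was 0.44, with 0.08 in replicate 1 and 0.97 in replicate 2. Of 19 mitosis genes, 0 were called in either direction; their median was -0.16 in replicate 1 and 1.11 in replicate 2. Mki67, the proliferation marker, had values of 0.41 and -0.41 in WT and -0.11 and 0.65 in KOWI, and was not called (0.27, limma adjusted p = 0.783). The groups overlapped, and the medians for KO over WT were 0.45 and 0.58.

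Other genes among the 15 highest ratios of called genes that were well above background in every WT and KOWI channel were Zscan4a (2.87), the anticoagulant protein S gene Pros1 (2.72), the phospholipase Plcb1 (2.57), Zfp52 (2.44), Ly6k (2.39), the thrombin receptor F2r (2.39), the nuclear receptor Rora (2.35) and Zc3h12c (2.32). Zscan4a, a gene of the early embryo, had values of 0.07 and -0.07 in WT, 1.53 and 1.08 in KO, and 3.09 and 2.65 in KOWI (limma adjusted p = 0.00857). The 3 groups were again in the order WT, KO, KOWI without overlap. Second probes gave lower ratios of 1.13 for Zfp52 and 0.94 for Zc3h12c. Among called genes dim in every WT channel, Tmem92 was at least 3.00-fold, Txk at least 2.91-fold and Spink2 at least 2.56-fold higher in KOWI.

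Transcription factors of intestinal identity gave 1 call, where 3.26% of all genes were called higher and 2.00% lower. Of 13 tested, Nr5a2, a nuclear receptor of crypt cells, was called lower (-1.47) and 0 were higher, with a median of -0.23. Hnf4a, a nuclear receptor of gut epithelium, was at -0.53 and was not called. Small intestine markers had a median of -0.19 with Mttp, a lipoprotein assembly protein, called higher (1.12), and stomach markers gave 0 calls among 7 tested in either direction (median 0.04).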

How the data were processed

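RNA of colon organoids was hybridised to 2-colour Agilent mouse arrays; the 6 organoid arrays form a closed loop over 6 samples (2 each of WT, KO and KOWI), and the 4 tissue arrays were not used here. Per the file headers, the authors scanned and quantified the arrays with Agilent Feature Extraction 12.2.0.7, and the deposited intensity values are mean spot signals and local backgrounds; probe coordinates are mm9. The deposited log10 ratios are the scanner software's Cy5 over Cy3 values. The authors' deposited value table is on the log2 scale; set against the scanner ratios its columns had slopes of 0.967 to 0.999 and medians of -0.00 to 0.02, and how it was centred is not given in the sources used here. The submitters' processing notes name limma.

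Here R 4.3.3 with limma 3.58.1 was used. Intensities were corrected by normexp (offset 50) and normalised by loess within arrays. Control spots had weight 0, spots marked as outliers were missing, and spots of a probe were averaged. The brightest probe stood for a gene. Genes had to be well above background in all 4 channels of at least 1 group and to be linked through at least 5 arrays. A gene could thus enter through only the group where it is high, which favours a call in that direction. Where 1 array was missing, the sample values came from the other 5. Probes were named through RefSeq accessions or symbols in the given table; of 56605 probes, 12051 had no name. Sample values were solved by least squares from the ratios within arrays and fitted by limma with group and replicate, followed by Benjamini-Hochberg adjustment over all 9894 genes. The replicate term stays in because replicate and dye are the same split; the data cannot say whether equal numbers pair samples. The main fit, from array ratios to calls, was tested on simulated data, and the fits of other design used as alternatives were not. "At least" folds set the brighter group's mean, with outlier spots kept, against the lowest signal well above background.

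The comparison, the gene lists and their members were chosen with earlier results of these data known. Genes were named if among the 15 highest or lowest called ratios above background in all channels of both groups (clone and model names left out), among the 5 largest dim in 1 group, among the 4 largest called of a list, or in a fixed set of markers; other members named, most of them not called, were chosen after their values were seen. The number of arrays limits the precision. Some named genes are not reported here.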

Additional observations from a re-analysis of the deposited data

How the results depend on the processing

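Called counts (main: 521, of which 323 higher and 198 lower) moved widely. With outlier spots kept, 6 genes were called among 14665 (2 higher, 4 lower; 2222 at an unadjusted p under 0.05), but 535 among the same 9894 genes (an alternative chosen after seeing the data). The authors' deposited ratios gave 4 among 14665 genes (2 and 2). Among 9894 genes, scanner software ratios gave 143 (90 and 53) and median centring 186 (131 and 55). Without a filter on dim probes, 226 were called (140 and 86), and with all groups required above background, 212 were higher. The fit without the replicate block gave 388 calls, of which 205 were higher. Treating arrays as independent gave 3638 (2145 and 1493), and the 2 direct arrays alone 0 in either direction by limma (1105 at an unadjusted p under 0.05). Leaving out 1 sample gave 0 to 780 calls, 0 to 484 of them higher and 0 to 296 lower. Uncalled ratios that changed sign when a sample was left out were Rnf43 (-0.15 to 0.34), Mki67 (-0.45 to 1.13) and Ascl2 (-0.36 to 0.82), each lowest without KOWI replicate 2; Rnf43 and Mki67 were also negative without WT replicate 2. Where a fit drops samples, a lone sample is assumed to vary like the others; the cause of the other changes was not tested. Direct arrays with a dye term could not be fitted with a test.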

Other observations

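Some gene families were looked at after their values were seen, so their counts are descriptions. Over all genes, 3.26% were called higher. All 3 tested Zscan4 genes, known from the 2-cell embryo and from embryonic stem cells, were called higher: Zscan4c was at 3.02, Zscan4a at 2.87 and Zscan4b at 2.48. Of 8 Pramel genes, 4 were called higher, Pramel37 (2.36), Pramel16 (2.20), Pramel31 (1.65) and Pramel21 (1.51), and Usp17la (1.41) and Zfp352 (1.31) also rose. These families have near-identical copies, so a probe may report several of them. Zscan4c had KO over WT at 1.43, below its KOWI over WT value.

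Of 168 tested Slc transporter genes, 13 were called lower, against 2.00% of all genes, and 4 higher, against 3.26% of all genes, with a median of -0.22. Among 6 aquaporins, Aqp8 (-3.78) and Aqp4 (-4.07) were called lower and Aqp9 and Aqp5 higher. Of 21 Cyp2 genes, 5 were called lower and 0 higher (median -1.12), and of 8 Ugt genes, 3 lower and 0 higher (median -1.15).

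Genes above background in only part of the WT channels included Gpm6b, a neuronal membrane protein, at 3.65, with 3.54 and 3.77 in KOWI and 1.18 and 0.75 in KO, and the sialyltransferase St8sia4 at 3.53, with 3.99 and 3.08 in KOWI and 2.34 and 1.40 in KO. Both were called.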
